A study of Rattus norvegicus with 20 samples.

Results

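The genes described here make, take up, store and move cholesterol, and they were followed in the ovaries of 20 female Sprague-Dawley rats. The list holds 29 rat genes, chosen by name for their function, with earlier results of these data known. Of the 29, 28 had a probe that could be matched to a gene symbol, among 12447 symbols on the probes kept. Lbr was not analysed here. Each gene was read from its brightest probe. The rats were the daughters of dams fed a mixture of brominated flame retardants (BFRs) before mating and until weaning at postnatal day 21. The 4 groups were the daughters of dams on 0 (5 animals), 0.06 (4 animals), 20 (5 animals) and 60 mg/kg/day (6 animals). The exposed dams' diets carried 750 mg of the mixture per kg at the highest dose, 250 at the middle and 0.75 at the lowest. By weight DE-71 made up 52.1% and BDE-209 44.2% of it, with DE-79 at 0.4%, all polybrominated diphenyl ethers, and hexabromocyclododecane at 3.3%. All daughters were killed at postnatal day 46, each from a litter of its own. The dams were fed the mixture only until weaning, and BFR levels in the daughters at postnatal day 46 are not given here. RNA came from whole ovaries, so fewer cells of a type and less RNA per cell cannot be told apart. The dose was calculated from an assumed food intake, and the submitters took replicate 4 of the 0.06 mg/kg/day group out of the series as an outlier.

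Cholesterol is built from acetyl-CoA. The mevalonate enzymes make isoprene units and join them to farnesyl diphosphate, the squalene enzymes turn that into lanosterol, and the enzymes after lanosterol trim it to cholesterol. When sterol in the endoplasmic reticulum is low, Scap escorts the transcription factor encoded by Srebf2 to the Golgi, where it is cut free to switch on these enzymes; when sterol is plentiful, Insig1 holds the pair back. Sterol-loaded cells instead use liver X receptors, which switch on the cholesterol exporters Abca1 and Abcg1. In the ovary, cholesterol is the substrate of progesterone and androgen synthesis, which begins in mitochondria with Star and Cyp11a1.

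Values below are log2 levels, the processed signal of a probe relative to the 75th percentile of all non-control spots of its array, so 0 is the signal at that percentile and 1 unit is a doubling. Levels of different probes have no common scale and are not set against each other. The 75th percentile ranged from 1158 to 1737 intensity units, between 74.8% and 83.4% of spots were well above background, and all 28 probes were well above background on all 20 arrays. The arrays lay on 3 slides (7, 6 and 7 arrays), and each slide held every dose; slide differences passed the threshold for 19.2% of 23258 probes and for 2 of the 28 genes, Fdft1 and Abcg1. Markers of luteal (8), granulosa (8), theca (5) and oocyte (5) cells were measured. So were markers of macrophages (10), smooth muscle (6), adipocytes (5), erythrocytes (4), oviduct epithelium (4) and hepatocytes (3). On 2 arrays, replicate 5 of 0 mg/kg/day and replicate 2 of 0.06 mg/kg/day, Akr1c18 (listed under its present symbol Akr1c3), the luteal enzyme that breaks down progesterone, was at -4.23 and -2.48, against 5.28 to 7.05 on the other 18. On 5 further arrays Cyp17a1, the theca enzyme of androgen synthesis, was at -2.62 or lower, against 1.71 or higher on the other 15. The main results on co-variation are given with and without the pair of arrays with low Akr1c18.

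Most synthesis enzymes went up and down together from animal to animal. The mean of the 19 measured enzymes was highest in replicate 2 of 0.06 mg/kg/day (2.70) and in replicate 2 of 0 mg/kg/day (2.04), and lowest in replicate 5 of 20 mg/kg/day (0.83) and replicate 3 of 0 mg/kg/day (0.95). At the top array 18 of the 19 enzymes lay above their own mean over the arrays, and at the bottom array 2 did. High and low arrays occurred in every dose group. Of the 19 enzymes, 16 had a Pearson's r of at least 0.6 with the mean of the other enzymes over 20 arrays, and the median r was 0.86, against a median of 0.03 and a 5th to 95th percentile range of -0.49 to 0.55 over all 23258 probes. The points of each r are the same 20 arrays, and all genes of an array share its scaling. On residuals of dose group and slide the enzymes' median r was 0.88. Without the pair of arrays with low Akr1c18 the r of Mvk was 0.58, under 0.6. Among the 171 pairs of enzymes the median r was 0.69, and among the 120 pairs of the 16 it was 0.79, with 108 above 0.5.

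**Figure D1:**
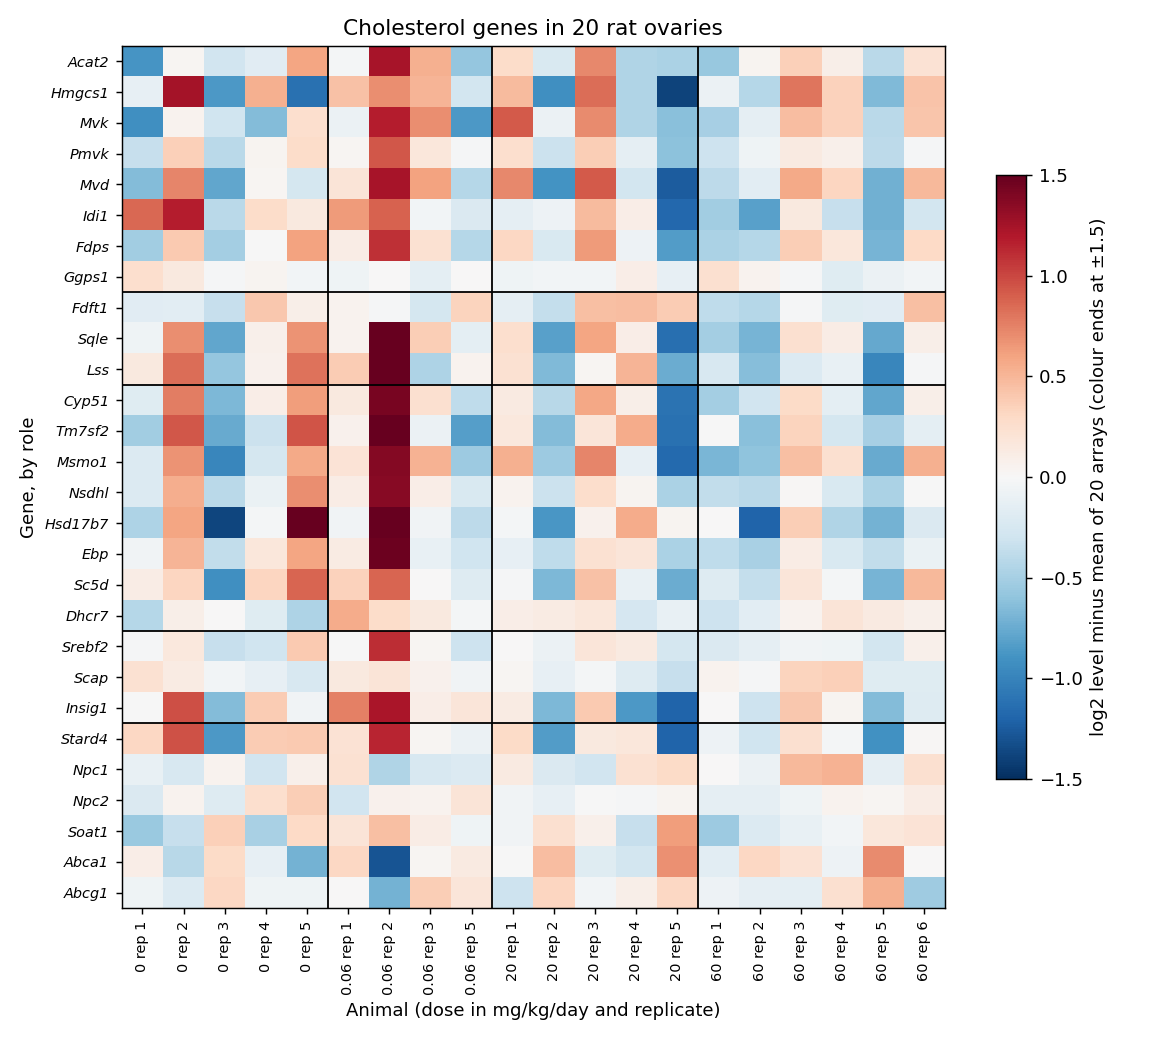
Level of each of the 28 genes (rows, grouped by role with black lines) on each of the 20 arrays (columns, by dose), as the log2 level minus the gene's mean over arrays, with the colour ending at ±1.5. Most enzyme rows share their colour within a column, as on replicate 2 of 0.06 mg/kg/day (enzyme mean 2.70) and replicate 5 of 20 mg/kg/day (0.83), whereas Abca1 and Abcg1 take the opposite colour on those arrays.

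The closest followers of the other enzymes were Cyp51, Sqle, Msmo1, Fdps and Pmvk. Sqle, the epoxidase that commits squalene to the sterol path, was at 2.65, 3.42, 1.93, 2.79 and 3.38 at 0 mg/kg/day, at 2.77, 4.39, 3.09 and 2.57 at 0.06, at 2.97, 1.90, 3.30, 2.82 and 1.58 at 20, and from 1.94 to 2.95 (median 2.50) at 60 mg/kg/day. Its lowest and highest arrays differed 7.00-fold, and every dose group held a level under 2.6 and one over 2.9. Cyp51, the demethylase that acts first on lanosterol, was at 0.96, 1.92, 0.48, 1.25 and 1.77 at 0 mg/kg/day, at 1.29, 2.57, 1.39 and 0.77 at 0.06, at 1.29, 0.73, 1.73, 1.24 and 0.05 at 20, and from 0.38 to 1.44 (median 0.94) at 60 mg/kg/day. Its highest and lowest arrays were those of Sqle, and the 4 groups overlapped. Both had an r of 0.98 with the mean of the other enzymes (Spearman's rho 0.98 for Cyp51 and 0.94 for Sqle), and on the 3 slides taken apart r was 0.97 to 0.99 for Cyp51 and 0.97 to 0.98 for Sqle. Without the 2 arrays farthest from the median enzyme mean (replicate 2 of 0.06 and replicate 5 of 20 mg/kg/day), r was 0.97 for Cyp51 and 0.96 for Sqle.

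In the mevalonate arm, Fdps, which makes farnesyl diphosphate, and Pmvk, the second of the mevalonate kinases, each had an r of 0.95 (rho 0.94 and 0.93; 0.93 and 0.90 without the farthest arrays). Fdps ranged from 1.96 to 3.90, and its other probe moved with the brightest (r 0.98). Mvd, the decarboxylase that follows Pmvk, had an r of 0.86 and Acat2, the cytosolic thiolase at the entry, 0.79. Mvk, the first kinase, and Idi1, the isomerase of the isoprene unit, each had 0.70. Without the pair of arrays with low Akr1c18, r was 0.64 for Acat2, 0.58 for Mvk and 0.68 for Idi1. It was then 0.94 for Fdps and 0.91 for Pmvk, and that of Mvd rose to 0.92. Idi1 differed 5.12-fold between its extreme arrays, and its r was 0.61, 0.69 and 0.84 on slides 1, 2 and 3. In the squalene arm, Lss, the cyclase that closes squalene epoxide to lanosterol, had an r of 0.84. Without the pair of arrays with low Akr1c18 the r of Lss was 0.71.

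After lanosterol, 7 of 8 measured enzymes belonged to the shared movement. Msmo1, the methyl oxidase, was at 5.16, 6.04, 4.38, 5.10 and 5.93 at 0 mg/kg/day, at 5.56, 6.74, 5.88 and 4.81 at 0.06, at 5.90, 4.81, 6.09, 5.24 and 4.19 at 20, and from 4.61 to 5.90 (median 5.18) at 60 mg/kg/day. Its r was 0.95 (rho 0.95; 0.94 without the farthest arrays), and its extremes fell on the same arrays as those of Cyp51. Nsdhl, which removes a carboxyl group in the same demethylation, had an r of 0.94, and Ebp, the isomerase, had 0.91. Tm7sf2, a sterol reductase, had 0.89 and Sc5d, the desaturase, 0.87. Hsd17b7, a ketoreductase, had 0.77. Without the pair of arrays with low Akr1c18, r was 0.63 for Hsd17b7 and 0.83 for Tm7sf2. It was then 0.86 for each of Ebp and Sc5d, and 0.95 for each of Nsdhl and Msmo1. Tm7sf2 and Hsd17b7 had the widest spans, 14.1-fold and 14.2-fold between lowest and highest array. The r of Hsd17b7 was 0.92, 0.91 and 0.37 on slides 1, 2 and 3.

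**Figure D2:**
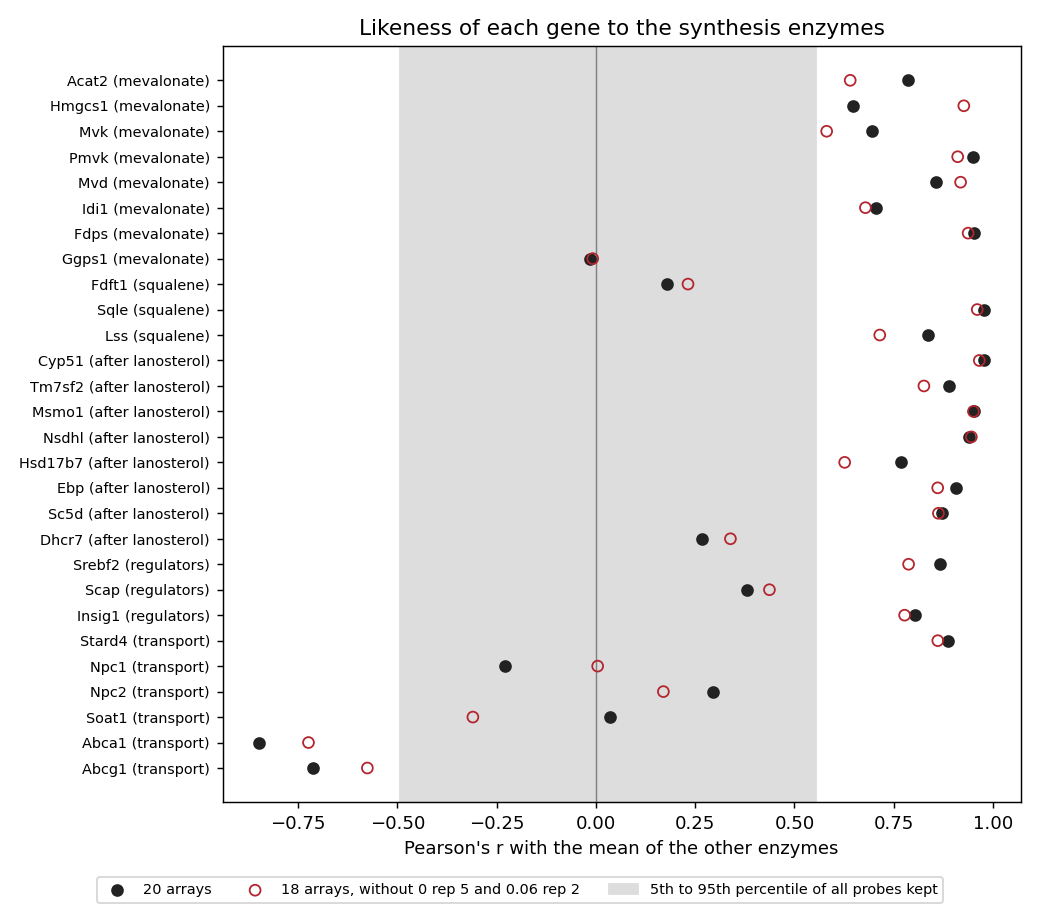
Pearson's r of each gene (rows) with the mean of the other synthesis enzymes, over 20 arrays (filled) and over 18 arrays without replicate 5 of 0 and replicate 2 of 0.06 mg/kg/day (open); the grey band is the 5th to 95th percentile of all probes (-0.49 to 0.55). Ggps1, Fdft1, Dhcr7, Scap, Npc1, Npc2 and Soat1 lie inside the band, Abca1 (-0.85) and Abcg1 (-0.71) lie below it, and Hmgcs1 is at 0.93 without the 2 arrays, against 0.65 with them.

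Promoter sequences are shown for genes toward both ends of this range and for Idi1 (r 0.70), so that the letters can be set beside the movement. RefSeq promoters of assembly GRCr8, 250 bases before to 50 after the start, were at hand for 23 of the 28 genes, 16 of them enzymes. The CCAAT box, the site of the factor NF-Y that works beside Srebf2, was searched as CCAAT and as ATTGG on the other strand. At least 1 match was in 13 of the 16 enzyme promoters and in 4 of the 7 others, against 37.5% of 33469 rat promoters; at least 2 matches were in 10 of the 16, against 11.2%. A stricter sterol response motif, TCACNCCAC or its reverse GTGGNGTGA, matched in 0 of the 23, against 1.12% of all. With a share that low, 0 among 23 is a likely count, so it cannot show that these genes lack such elements. In the sequences below, printed 5′ to 3′ as the table gives them, capitals mark CCAAT or ATTGG. Nsdhl, with 5 matches, and Msmo1, with 3, followed the enzyme mean closely, and Idi1 had 2. Cyp51, the closest follower, had 0, as did Acat2 (r 0.79), Dhcr7, which did not follow, and Abca1, which ran opposite. Hsd17b7 had 3, and Hmgcs1, Mvd, Fdps, Tm7sf2 and Ebp had 2 each. Lss (r 0.84), Sc5d (r 0.87), Srebf2 and Insig1 had 1 each. Of the other genes of low r with a promoter at hand, Npc2 had 3, Ggps1 and Soat1 had 1 each, and Scap and Npc1 had 0. Mvk, with 5, had an r of 0.70. A match describes letters in this window and not a bound site.

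Nsdhl (chrX:155817110-155817409, plus strand): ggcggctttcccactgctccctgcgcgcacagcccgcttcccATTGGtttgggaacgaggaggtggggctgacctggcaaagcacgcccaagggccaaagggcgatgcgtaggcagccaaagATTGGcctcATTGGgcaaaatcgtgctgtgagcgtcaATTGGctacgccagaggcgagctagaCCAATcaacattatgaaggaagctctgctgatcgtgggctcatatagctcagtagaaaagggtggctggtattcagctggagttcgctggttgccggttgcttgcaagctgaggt

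Msmo1 (chr16:29746863-29747162, plus strand): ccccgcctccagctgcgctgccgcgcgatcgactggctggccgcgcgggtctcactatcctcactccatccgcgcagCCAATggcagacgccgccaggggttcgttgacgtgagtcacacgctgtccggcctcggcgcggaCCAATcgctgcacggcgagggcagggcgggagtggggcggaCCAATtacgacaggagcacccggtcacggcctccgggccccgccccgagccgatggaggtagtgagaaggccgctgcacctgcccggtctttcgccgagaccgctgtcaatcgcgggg

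Idi1 (chr17:66547475-66547774, minus strand): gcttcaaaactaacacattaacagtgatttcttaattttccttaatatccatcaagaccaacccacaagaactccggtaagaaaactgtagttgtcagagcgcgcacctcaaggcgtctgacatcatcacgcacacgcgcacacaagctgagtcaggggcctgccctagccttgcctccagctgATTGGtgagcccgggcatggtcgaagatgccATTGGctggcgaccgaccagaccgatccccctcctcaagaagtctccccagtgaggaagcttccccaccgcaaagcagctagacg

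Cyp51 (chr4:30991443-30991742, plus strand): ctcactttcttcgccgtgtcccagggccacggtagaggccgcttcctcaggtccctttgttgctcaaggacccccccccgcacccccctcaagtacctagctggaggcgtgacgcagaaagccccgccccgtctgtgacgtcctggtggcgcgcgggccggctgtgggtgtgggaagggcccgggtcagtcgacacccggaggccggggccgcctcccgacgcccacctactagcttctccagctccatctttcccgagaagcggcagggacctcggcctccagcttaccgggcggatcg

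Dhcr7 (chr1:208444184-208444483, plus strand): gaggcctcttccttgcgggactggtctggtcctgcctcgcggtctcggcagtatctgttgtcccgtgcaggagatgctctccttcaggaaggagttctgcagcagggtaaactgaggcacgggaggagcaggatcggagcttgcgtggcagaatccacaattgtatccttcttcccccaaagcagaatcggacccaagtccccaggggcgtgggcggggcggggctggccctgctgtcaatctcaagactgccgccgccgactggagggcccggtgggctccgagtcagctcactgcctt

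Abca1 (chr5:72596424-72596723, minus strand): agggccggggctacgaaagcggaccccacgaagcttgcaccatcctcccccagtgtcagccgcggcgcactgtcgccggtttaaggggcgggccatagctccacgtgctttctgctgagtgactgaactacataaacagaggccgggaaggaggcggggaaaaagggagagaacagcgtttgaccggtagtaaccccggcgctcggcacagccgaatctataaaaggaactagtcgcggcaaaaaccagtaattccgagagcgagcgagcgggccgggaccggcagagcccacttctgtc

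Hmgcs1, Fdft1, Dhcr7 and Ggps1 were the enzymes that followed least, each in its own way. Hmgcs1, the synthase that feeds the pathway before mevalonate, was at 4.15, 5.52, 3.41, 4.81 and 3.15 at 0 mg/kg/day, at 4.71, 4.98, 4.79 and 4.00 at 0.06, at 4.75, 3.35, 5.12, 3.83 and 2.89 at 20, and from 3.62 to 5.08 (median 4.40) at 60 mg/kg/day. The level of 3.15 in replicate 5 of 0 mg/kg/day was the second lowest of the 20, on the array with the 4th highest enzyme mean (1.92), where 15 of 19 enzymes were above their own mean. With all arrays the r of Hmgcs1 was 0.65 (rho 0.69), and without that array and replicate 2 of 0.06 mg/kg/day it was 0.93. Over the same 18 arrays the r of Mvd was 0.92, against 0.86 with all arrays.

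Fdft1, the synthase that joins farnesyl units to squalene, differed by slide. Its level was 2.73 to 3.10 (median 3.05) on slide 3, against 2.22 to 2.70 (median 2.48) on slide 1 and 2.28 to 2.63 (median 2.42) on slide 2, with no overlap between slide 3 and the others, and the slide test gave an adjusted p of 1.65e-04 (limma, group in the model). Its r with the enzyme mean was 0.18 over all arrays, and 0.69, 0.62 and -0.21 on slides 1, 2 and 3. On residuals of dose group and slide the r of Fdft1 was 0.40, against a median of 0.88 for the enzymes. Whether the slide accounts for the low r was not tested beyond these values. Dhcr7, the reductase of the last step, was at 3.31, 3.82, 3.73, 3.55 and 3.27 at 0 mg/kg/day, at 4.30, 4.00, 3.88 and 3.71 at 0.06, at 3.83, 3.86, 3.90, 3.49 and 3.63 at 20, and from 3.42 to 3.93 (median 3.80) at 60 mg/kg/day. The lowest of the 20 levels was on an array with a high enzyme mean (replicate 5 of 0 mg/kg/day), and the r was 0.27 (rho 0.29). Ggps1, which diverts farnesyl diphosphate to protein prenylation, hardly varied: it ranged from -2.35 to -1.91, a 1.35-fold span, with an r of -0.01 (rho 0.04; r -0.15 without the farthest arrays).

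Of the regulators, Srebf2 and Insig1 went with the enzymes and Scap did so less. Srebf2, which is itself a target of its product, was at 1.54, 1.71, 1.22, 1.26 and 1.95 at 0 mg/kg/day, at 1.56, 2.67, 1.59 and 1.25 at 0.06, at 1.56, 1.47, 1.75, 1.70 and 1.29 at 20, and from 1.29 to 1.64 (median 1.46) at 60 mg/kg/day. The one array above 2 was replicate 2 of 0.06 mg/kg/day, and r was 0.87 with it and 0.79 without it and replicate 5 of 0 mg/kg/day. Insig1, the retention factor that the pathway switches on against itself, had an r of 0.80 and ranged from 0.05 to 2.48. Scap ranged from 1.61 to 2.31 and had an r of 0.38.

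The transport genes split. Stard4, a soluble sterol carrier that Srebf2 controls, was at 0.80, 1.44, -0.37, 0.87 and 0.89 at 0 mg/kg/day, at 0.71, 1.63, 0.52 and 0.40 at 0.06, at 0.77, -0.34, 0.63, 0.66 and -0.72 at 20, and from -0.41 to 0.73 (median 0.44) at 60 mg/kg/day. It followed the enzymes with an r of 0.89 (rho 0.86), although its other probe did so less (r 0.56). Npc1 and Npc2, which hand lysosomal cholesterol on, had r of -0.23 and 0.30, over spans of 1.96-fold and 1.58-fold between lowest and highest array. The rho of Npc1 was -0.21, and its r without the farthest arrays was 0.14. Soat1, which esterifies cholesterol for storage, ranged from -1.97 to -0.79 and had an r of 0.03 (rho -0.07; r -0.02 without the farthest arrays). The r of Soat1 was 0.73, -0.84 and -0.27 on slides 1, 2 and 3, so its sign was not the same across slides.

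The exporters Abca1 and Abcg1 ran against the enzymes. Abca1 was at -1.32, -1.84, -1.12, -1.54 and -2.12 at 0 mg/kg/day, at -1.10, -2.72, -1.39 and -1.28 at 0.06, at -1.43, -0.95, -1.60, -1.69 and -0.73 at 20, and from -1.58 to -0.71 (median -1.31) at 60 mg/kg/day. Its 3 lowest levels lay on 3 of the 4 arrays with the highest enzyme means. The r was -0.85 (rho -0.71), the lowest among all 23258 probes, -0.85, -0.72 and -0.87 on the 3 slides, -0.69 without the farthest arrays, and -0.72 without replicate 5 of 0 and replicate 2 of 0.06 mg/kg/day. Abcg1 was at 0.95, 0.81, 1.33, 0.95 and 0.96 at 0 mg/kg/day, at 1.02, 0.31, 1.39 and 1.20 at 0.06, at 0.71, 1.34, 0.98, 1.11 and 1.33 at 20, and from 0.49 to 1.55 (median 0.91) at 60 mg/kg/day. Its lowest level was again on replicate 2 of 0.06 mg/kg/day. The r was -0.71 (rho -0.60), -0.53 without the farthest arrays and -0.58 without that pair; its slides differed, with an adjusted p of 0.0490 (limma). Of all probes, 0.318% had an r of -0.7 or lower.

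**Figure D3:**
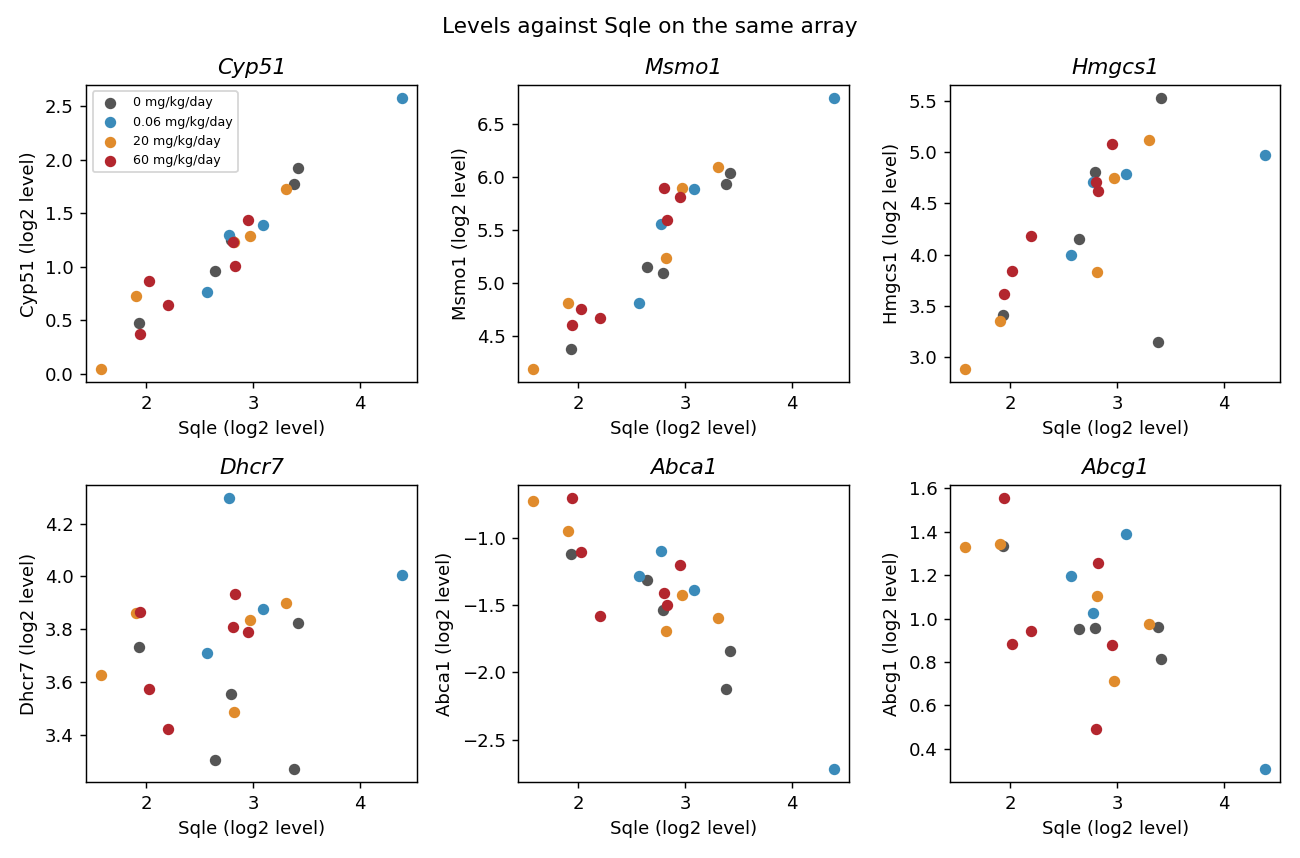
Log2 levels of Cyp51, Msmo1, Hmgcs1, Dhcr7, Abca1 and Abcg1 (vertical) against Sqle (horizontal) on the same array, 1 point per animal, coloured by dose. Cyp51 and Msmo1 climb with Sqle, Abca1 and Abcg1 go down, and the point under the Hmgcs1 trend is replicate 5 of 0 mg/kg/day (Hmgcs1 3.15, Sqle 3.38).

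The movement was tested across all probes as the slope of a probe's level on that of 1 enzyme, with dose group and slide in the model. With Hmgcs1 as that enzyme, 0 of the 27 other genes passed an adjusted p of 0.05 (limma, Benjamini-Hochberg over 23257 probes); 1 probe passed, 0.0043% of those tested, and 2256 probes had an unadjusted p under 0.05. The smallest adjusted p among the genes belonged to Mvd, with a slope of 0.82 ± 0.12 log2 per log2 of Hmgcs1 (SE, adjusted p = 0.0531), and Insig1, with 0.57 ± 0.09 (adjusted p = 0.0644). With neither group nor slide in the model 2 genes passed, Mvd and Insig1, among 0.0258% of all probes. The count turned on single arrays: without replicate 5 of 0 mg/kg/day 8 genes passed, and without it and replicate 2 of 0.06 mg/kg/day 11 genes did, all higher with Hmgcs1, with 42 probes passing in all.

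With Sqle as the enzyme, an alternative fixed at the same time as the Hmgcs1 test, 17 of the 27 other genes passed as higher with Sqle, against 1.78% of all probes, and 2 as lower, against 0.701%. With Idi1 or Fdft1 as the enzyme 0 probes passed. The slope calls that follow, here and for genes outside the list, are those with Sqle alone. The mevalonate arm had 6 of 8 passing as higher, the squalene arm 1 of 2, the enzymes after lanosterol 7 of 8, the regulators 2 of 3 and the transport genes 1 of 6. Cyp51 had a slope of 0.87 ± 0.07 and Msmo1 of 1.07 ± 0.08 log2 per log2 of Sqle (SE, adjusted p = 2.2e-05 for each), and Stard4 had 0.75 ± 0.07 (adjusted p = 9.35e-05). The slopes of Tm7sf2 (1.17 ± 0.17) and Hsd17b7 (1.05 ± 0.23) were also near or above 1, and those of Pmvk (0.51 ± 0.06) and Srebf2 (0.42 ± 0.08) were among the lower ones that passed. The genes that passed as lower were Abca1, with -0.60 ± 0.09 (adjusted p = 5.83e-03), and Abcg1, with -0.29 ± 0.07 (adjusted p = 0.0449). Abca1 passed in all 20 fits that left out 1 array (highest adjusted p = 0.0439), and Abcg1 in 4 of the 20 (highest adjusted p = 0.177). Hmgcs1 (0.81 ± 0.22, adjusted p = 0.0643), Ggps1, Fdft1, Dhcr7, Scap, Npc1, Npc2 and Soat1 did not pass.

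Without replicate 5 of 0 and replicate 2 of 0.06 mg/kg/day, 14 genes passed as higher with Sqle and 0 as lower (adjusted p = 0.0575 for Abca1 and 0.173 for Abcg1), among 0.593% of all probes. Leaving out 1 array at a time gave 12 to 19 genes, with 12 when replicate 2 of 0.06 mg/kg/day was left out, and 114 to 640 probes. That animal had the highest level of Sqle (4.39) and the lowest of Abca1 (-2.72) and Abcg1 (0.31).

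Outside the list, the genes most like the enzyme mean included several that make acetyl-CoA or acetoacetyl-CoA, the material of the pathway. Their likeness is r with the mean of the 19 enzymes over 20 arrays. Aacs, which makes acetoacetyl-CoA from ketone bodies, had an r of 0.94, Acly, which makes cytosolic acetyl-CoA from citrate, had 0.92, and Acss2, which makes it from acetate, had 0.91. Tlcd1 (0.87), Unc13d (0.83), Tspan13 (0.83), Erg28 (0.83), which scaffolds the sterol demethylation enzymes, and Atp6v0a1 (0.82) completed those named. Without the pair of arrays with low Akr1c18 these 8 values ran from 0.66 (Atp6v0a1) to 0.94 (Aacs). Of the 27 measured further genes of sterol synthesis, uptake and release, 4 passed the slope test on Sqle, all as higher, Erg28 among them (0.43 ± 0.10, adjusted p = 0.0422); without the pair 2 passed, and Erg28 did not (adjusted p = 0.178). The lowest r of that list were those of Nr1h3 (-0.56), which encodes a liver X receptor, Apoe (-0.53), a lipoprotein component, and Vldlr (-0.47), a lipoprotein receptor. Without the pair Nr1h3 was at -0.54, Apoe and Vldlr were each at -0.21, and the lowest was Lipa, the lysosomal cholesterol esterase, at -0.61, against -0.34 with all arrays. Of the 18 genes of fatty acid synthesis, 4 passed, all as higher: Acss2 (0.75 ± 0.10, adjusted p = 1.84e-03), Acly (0.39 ± 0.06, adjusted p = 4.2e-03), Elovl6, an elongase (0.70 ± 0.12, adjusted p = 0.0123), and Fads2, a desaturase (0.60 ± 0.14, adjusted p = 0.0341). Without the pair 3 passed, and Fads2 did not (adjusted p = 0.113). Elovl6 had an r of 0.71, and the lowest were those of Gpam (-0.58), which starts triglyceride synthesis, Srebf1 (-0.12), the transcription factor of fatty acid genes, and Scd (-0.07), a desaturase. Without the pair Gpam was at -0.39, and the sign of Srebf1 (0.25) and Scd (0.24) turned, as did that of Elovl5, an elongase (-0.36, against 0.21 with all arrays).

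Among 14 genes that use cholesterol for steroids or store it, 2 passed with Sqle, both as higher. They were Cyp11a1, which cleaves the side chain of cholesterol (0.38 ± 0.05, adjusted p = 1.21e-03, r 0.79), and Fdxr, the reductase that supplies its electrons (0.24 ± 0.06, adjusted p = 0.0346, r 0.52). Without the pair of arrays with low Akr1c18, Cyp11a1 passed (0.40 ± 0.06, adjusted p = 0.0106, r 0.71) and Fdxr did not (0.30 ± 0.06, adjusted p = 0.0594). Cyp17a1 had an r of 0.46 with all arrays and 0.56 without the pair, Star -0.08 and -0.23, and Srd5a1, a steroid reductase, -0.56 and -0.42. Plin2, a lipid droplet coat, was at 2.41 and 2.39 on the pair, against 3.63 or higher on the other 18 arrays, and its r of -0.52 was -0.09 without them. Of the luteal markers, 3 of 8 passed, namely Cyp11a1, Lhcgr (1.68 ± 0.34, adjusted p = 0.0223) and Prlr (0.46 ± 0.09, adjusted p = 0.0152), which encode the receptors of luteinizing hormone and prolactin; 5 of 8 had an r above 0. Lhcgr was at 1.32 and 2.10 on the pair with low Akr1c18, against -0.74 or lower on the other 18 arrays. Without the pair Lhcgr (1.19 ± 0.35, adjusted p = 0.124) and Prlr (0.35 ± 0.10, adjusted p = 0.106) did not pass, their r were 0.57 and 0.63, against 0.75 and 0.81 with all arrays, and 4 of 8 luteal markers had an r above 0. Hsd11b1 had the lowest r of the 8, at -0.68 with all arrays and -0.45 without the pair. Its slope on Sqle did not pass (-0.89 ± 0.23, limma adjusted p = 0.0543). Without the pair Sfrp4 was lowest, at -0.61, against -0.16 with all arrays. Akr1c18, not among the 8, had an r of -0.58, and of -0.17 without the pair. The mean of the luteal markers spanned 0.77 to 1.09 at 0, 0.90 to 1.66 at 0.06, 0.58 to 0.93 at 20 and 0.55 to 1.08 at 60 mg/kg/day. Of the macrophage markers 0 of 10 had an r above 0 (median -0.44), and 0 of 10 passed; without the pair 2 of 10, Lyz2 (0.30) and Csf1r (0.31), had one, the median was -0.21, and 0 of 10 passed. With all arrays their mean spanned -0.41 to 0.32 at 0, -0.52 to 0.53 at 0.06, -0.09 to 0.49 at 20 and -0.24 to 0.66 at 60 mg/kg/day. Among granulosa, theca and oocyte markers 7 of 8, 4 of 5 and 5 of 5 had an r above 0 (median 0.21, 0.16 and 0.17). So had 4 of 4 erythrocyte and 3 of 5 adipocyte markers. Fewer did for smooth muscle (1 of 6), oviduct epithelium (1 of 4) and hepatocytes (1 of 3). No marker of these types passed, and the median r over all probes was 0.03. Without the pair 6 of 8 granulosa, 4 of 5 theca, 5 of 5 oocyte and 0 of 4 erythrocyte markers had one. The 4 lowest enzyme means (0.83, 0.95, 0.98 and 1.08) lay on 4 of the 5 arrays with low Cyp17a1, and the fifth, replicate 1 of 0.06 mg/kg/day, had an enzyme mean of 1.69, the 7th highest. The enzyme mean had an r of -0.39 with the 75th percentile of signal and -0.05 with the percentage of spots well above background. The part of these cell types, of stage and of signal in the shared movement was not tested.

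No dose changed the level of any of the 28 genes at an adjusted p of 0.05. Over all 23258 probes 0 passed (0%) at 0.06, 20 or 60 mg/kg/day against 0, over dose order or jointly (limma, group means, Benjamini-Hochberg), and 710, 1066 and 1464 had an unadjusted p under 0.05 at the 3 doses (3.05%, 4.58% and 6.29%). Over dose order 1338 (5.75%) and jointly 738 had one. Of the 28 genes, 1 had an unadjusted p under 0.05 at 0.06, 0 at 20, 1 at 60 mg/kg/day and 2 over dose order. The SE of these differences ran from 0.08 to 0.58 log2. The 95% interval for Sqle at 60 minus 0 mg/kg/day went from -1.15 to 0.40, so differences inside that range remain compatible with these data.

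**Figure D4:**
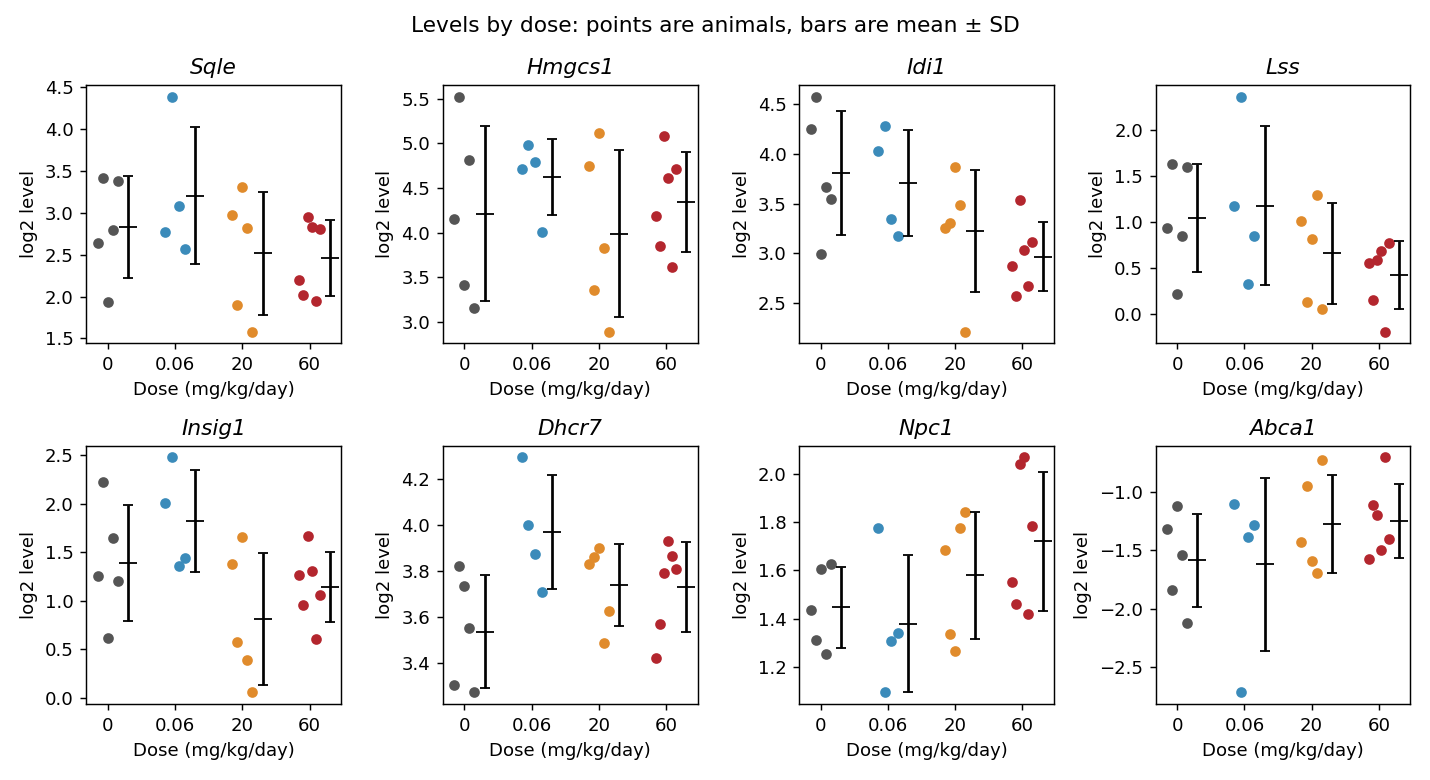
Log2 levels of 8 genes by dose of the dams, 1 point per animal, with mean ± SD (n = 5, 4, 5 and 6 from low to high dose). Animals of 1 dose spread widely, and the groups overlap for every gene shown; Idi1 averaged 2.97 at 60 against 3.80 at 0 mg/kg/day.

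The mean of the 19 enzymes was 1.55 ± 0.449 at 0, 1.82 ± 0.621 at 0.06, 1.42 ± 0.465 at 20 and 1.37 ± 0.319 at 60 mg/kg/day (SD, n = 5, 4, 5 and 6). Of the 19 enzymes 17 had a higher mean at 0.06 than at 0 mg/kg/day, with a median difference of +0.29, while 14 had a lower mean at 20 (median -0.15) and 14 at 60 mg/kg/day (median -0.12); the medians over all probes were -0.03, +0.03 and -0.04. Since the enzymes move together, these counts are not 19 separate observations. Within slides 1, 2 and 3 the enzyme mean at 0.06 minus 0 mg/kg/day was +0.53, +0.72 and -0.50, that at 20 was +0.06, +0.13 and -0.29, and that at 60 was -0.52, +0.47 and -0.06, so no dose had the same sign on every slide. Here and below, every slide 2 difference is set against replicate 3 of 0 mg/kg/day, the only control there (enzyme mean 0.95, rank 19 of 20). Replicate 3 of 0.06 and replicate 2 of 20 mg/kg/day were also alone in their dose on slide 2. So were replicate 1 of 20 mg/kg/day on slide 1, and replicate 5 of 0.06 and replicate 6 of 60 mg/kg/day on slide 3. Without replicate 2 of 0.06 mg/kg/day the median difference at that dose was -0.02.

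At 60 mg/kg/day Idi1 came first by p. It ranged from 2.57 to 3.53 (median 2.96) at 60 mg/kg/day, against 4.25, 4.57, 2.99, 3.67 and 3.54 at 0 mg/kg/day. All 6 animals lay below 4 of the 5 controls, and replicate 3 of the controls lay inside their range. The difference was -0.84 ± 0.31 log2 (SE, limma unadjusted p = 0.0132, adjusted p = 0.782), and within the slides it was -1.69, +0.09 and -0.49. Over dose order Idi1 had a slope of -0.30 ± 0.10 log2 per dose step (limma unadjusted p = 0.0066, adjusted p = 0.839). The next at 60 minus 0 mg/kg/day were Lss (-0.62 ± 0.34), Npc1 (+0.27 ± 0.15), Ebp (-0.41 ± 0.26) and Dhcr7 (+0.19 ± 0.13), with adjusted p from 0.786 to 0.809. Over dose order they were Lss (-0.24 ± 0.11 per step, limma unadjusted p = 0.0408), Npc1 (+0.10 ± 0.05), Ebp (-0.16 ± 0.08) and Nsdhl (-0.15 ± 0.08).

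At 20 minus 0 mg/kg/day the first 5 genes by p were Idi1 (-0.58 ± 0.32), Insig1 (-0.58 ± 0.33), Stard4 (-0.52 ± 0.35), Dhcr7 (+0.20 ± 0.14) and Ggps1 (-0.11 ± 0.08), each with an adjusted p of 0.929. None had an unadjusted p under 0.05, the lowest being 0.0866 for Idi1. At 0.06 minus 0 mg/kg/day Dhcr7 came first with +0.43 ± 0.15 (limma unadjusted p = 0.00811, adjusted p = 1). Its 4 levels at 0.06 mg/kg/day, 3.71 to 4.30, overlapped those at 0 mg/kg/day, 3.27 to 3.82, and the difference was +0.58, +0.14 and +0.30 on the 3 slides. Soat1 (+0.32 ± 0.22), Ggps1 (-0.12 ± 0.09), Mvk (+0.55 ± 0.40) and Mvd (+0.59 ± 0.45) followed, each with an adjusted p of 1.

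**Figure D5:**
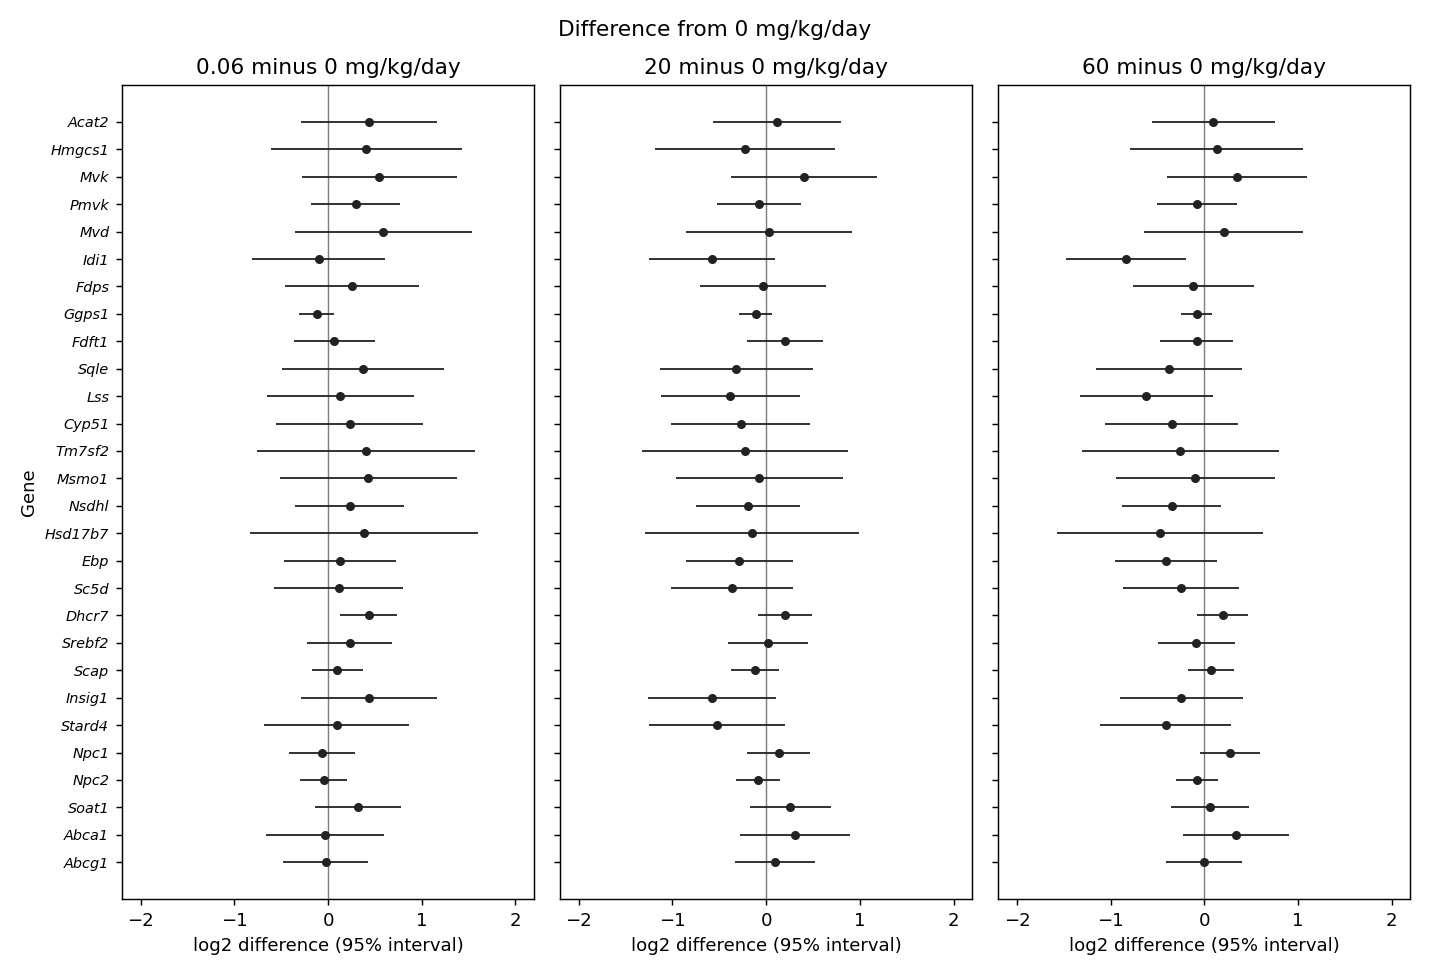
Difference in log2 level of each of the 28 genes at 0.06, 20 and 60 minus 0 mg/kg/day (points) with its 95% interval (lines), from the limma fit of group means. Intervals of Dhcr7 at 0.06 (0.13 to 0.74) and of Idi1 at 60 mg/kg/day (-1.48 to -0.20) exclude 0, and neither passes after adjustment over all probes.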

How the data were processed

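Ovarian RNA (100 ng) was labelled with Cy3 per the labels' protocols and hybridised to 1-colour Agilent arrays. Per the file headers, spot intensity was extracted by the authors with Feature Extraction 11.5.1.1 (protocol GE1_1105_Oct12, design build rn4), and the processed signal is background-corrected. The series' deposited table, the authors' own log2 values with unstated centring, was an alternative; its normalization is not given in the sources used here. Here, log2 processed signal minus that of each array's 75th percentile was averaged over a probe's spots without outlier spots. Of 30367 probes, 32 had no spot left on some array, and 23258 were well above background on at least 4 arrays and were kept. Transcript accessions were matched to RefSeq symbols (18737 probes with 1 symbol, 0 with several, 11598 with none). limma 3.58.1 in R 4.3.3 fitted the models, tested first on simulated data. The p-values set a difference or slope against the residual spread between arrays. Each animal had 1 array, so that spread holds differences between animals and between arrays. The number of arrays limits the precision. Samples were grouped by the dose in the labels. Normexp used median spot signals, since mean signals were not among the columns. Full values were to be given for genes past the threshold in a dose comparison and the 5 of smallest p per dose. They were also to be given for the 5 highest and lowest r, the 10 outside genes of highest r and, per further list, the 3 highest and lowest r. Values beyond that rule were chosen after they were seen. Slopes on Sqle are printed for only some of the genes that passed. Members and lists were chosen with earlier results of these data known, and some genes the rules take are not reported here. Alternatives changed normalization, background correction, filter, slide, spike-in set, probe choice, array weights, replicate block, covariates, the enzyme of the slope, and each array left out.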

Additional observations from a re-analysis of the deposited data

Results flagged for a closer look

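In 2 of 116 checks of a gene or of the enzyme mean within a dose group, 1 animal stood far from the others. By chance about 1 in 20 checks would be flagged, which is more than were flagged here. Hsd17b7 was at 2.40 in replicate 2 of 0.06 mg/kg/day, against -0.45 to -0.11 in the other 3 animals of that dose; the same animal had the highest enzyme mean. Abcg1 was at 1.33 in replicate 3 of 0 mg/kg/day, against 0.81 to 0.96 in the other 4; this animal had the second lowest enzyme mean (0.95). The causes were not tested.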

How the results depend on the processing

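In every dose comparison 0 probes passed under each alternative run, except on slide 1 alone, where 1 probe passed at 20, at 60, over dose order and jointly. The median enzyme difference at 0.06 mg/kg/day moved to -0.53 on slide 3 alone, to 0.075 with array weights, and leaving out 1 array gave -0.02 to 0.48 there, -0.32 to 0.01 at 20, -0.33 to -0.05 at 60 and -0.15 to -0.03 over dose order. On slide 2 alone that median was 0.083 at 20, 0.43 at 60 and 0.056 over dose order, against -0.15, -0.12 and -0.08 on all arrays, and on slide 1 alone it was -0.52 at 60 and -0.24 over dose order. The 14 reversals of single genes all came from single slides. All slide 2 values are set against replicate 3 of 0 mg/kg/day, the only control on that slide. On slide 1, Dhcr7 at 60 mg/kg/day became -0.068. On slide 2, Soat1 at 0.06 became -0.24, Idi1 and Stard4 at 20 became 0.32 and 0.028, Idi1, Lss and Ebp at 60 became 0.091, 0.15 and 0.21, and Idi1, Lss, Ebp and Nsdhl over dose order became 0.023, 0.024, 0.037 and 0.0103. On slide 3, Ggps1, Mvk and Mvd at 0.06 became 0.0086, -0.66 and -0.31. The cause was not tested.

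Probes passing the slope on Hmgcs1 numbered 4 (2 of the genes) with quantile normalization, 3 (1) with normexp, 6 (2) in the deposited values, 5 (2) with no slide, 3 (1) with no group and 6 (2) with neither. They numbered 577 (17 higher, 2 lower) with Sqle, 0 with Idi1 and 0 with Fdft1 as the enzyme, and 42 (11) without replicate 5 of 0 and replicate 2 of 0.06 mg/kg/day, an alternative chosen after seeing the data. Leaving out 1 array gave 0 to 25 probes and 0 to 8 of the genes. Same-numbered animals of different doses did not deviate together (27 pairs, r -0.31 to 0.35, median 0.03), so no pairing by replicate number was seen. Such r cannot exclude that the numbers record something shared. With the replicate numbers as a block in place of slide, 0 probes passed on Hmgcs1. On Sqle 13 genes then passed as higher and 1 as lower (limma adjusted p = 0.0829 for Abcg1). All 28 probes were well above background on every array; the number of animals limits the precision, and what part it has in the absence of dose calls was not tested.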
